A study of Mus musculus with 2 samples.

Results

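Nonclassical monocytes of mouse bone marrow were picked out of 2 single-cell RNA libraries by 4 genes of that cell type. A barcode was taken when it had at least 1 count of Ace or Treml4 and at least 1 of Csf1r or Cx3cr1. It also had no count of Cd79a, Siglech, Cd209a or Clec9a, which mark B cells and dendritic cells, and counts of fewer than 2 of the 3 macrophage genes C1qa, C1qb and C1qc. The rule found 236 cells among 28382, of which 153 of 12803 were in the control library and 83 of 15579 in the library labelled T1D (type 1 diabetes). Both used C57/BL6 mice. Those of the control had been given sodium citrate solution and had normal blood sugar, and those of the T1D library had been given streptozotocin, a toxin of insulin-producing beta cells, and had high blood sugar. Both were marrow of femurs and tibias, freed by enzyme digestion of bone fragments and treated to lyse red cells. No source used here gives the number of mice, their age or the time after treatment.

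There was 1 library per group, so no difference reported here could be checked on replicates or tested between the conditions. Intervals are 95% intervals of counting error only: Clopper-Pearson for a share of cells, exact Poisson for a level, and exact binomial for a ratio of counts. Counts of 1 cell are not independent, so the true error is larger. Levels are counts summed over the cells of a library, as CPM, each sum scaled to the same total.

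Monocytes leave the marrow as classical cells, which carry Ly6C and the chemokine receptor CCR2, and a part of them turn into nonclassical cells under the transcription factor NR4A1. Nonclassical monocytes have little Ly6C, much CX3CR1, CD43 and the Fc receptor FcγRIV, and depend on the CSF1 receptor. They are known for crawling along the inner wall of blood vessels and clearing debris there.

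The libraries held 57494166 and 52022458 counts, and the kept cells had a median of 3633 counts in the control and 2757 in T1D. The nonclassical monocytes had a median of 4007 and 3121 counts, from 1257 and 1028 genes, with 33.1% and 35.9% in ribosomal RNA. Their sums came to 674853 and 276711 counts, so that 3 counts, taken as the limit of what a gene at 0 allows, stand for 4.45 and 10.8 CPM. The libraries shared 253 barcodes, and none of them was a nonclassical monocyte in both, while 4 control and 1 T1D nonclassical monocytes had a barcode that was another cell in the other library.

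The rule set the levels of its own 4 genes, which are given as a description. Ace, the angiotensin-converting enzyme, was seen in 86.3% of the control and 83.1% of the T1D cells, at 431 and 632 CPM. Treml4, an innate immune receptor of the TREM family, was seen in 32.0% and 28.9%, at 88.9 and 105 CPM. Csf1r, the receptor of the growth factor CSF1, was seen in 92.2% and 95.2%, at 563 and 817 CPM. Cx3cr1, the fractalkine receptor, was seen in 49.0% of the control cells and 32.5% of the T1D cells, against 35.9% and 7.05% of classical monocytes. In T cells, which should lack them, Cx3cr1 was seen in 2.67% and 0.459%, and both criteria were met by 1 of 262 control cells and 0 of 218 T1D cells, where 3 counts of the total would be 1.38% and the Clopper-Pearson upper bound is 1.68%. In B cells both criteria were met by 10 of 1534 control cells (0.652%, 0.313 to 1.20%) and 0 of 127 T1D cells (upper bound 2.86%), though a B cell with Cd79a is left out by the rule. The T cells had a median of 3059 and 2853 counts.

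Many cells lay close to the edge of the rule. In the control, 69 cells had exactly 1 count of Ace or Treml4 and 84 had 2 or more, and in T1D these numbers were 31 and 52. Of 11 genes compared over that edge, the 7 identity genes were higher with each step in both libraries. Eno3, the muscle form of enolase, stood at 3.72 CPM in the 1524 control cells that lacked Ace and Treml4 but met the rest of the rule, at 79.9 CPM in the cells with 1 count and at 183 CPM in those with 2 or more. In T1D the same 3 levels were 6.21, 147 and 263 CPM, the first from 1319 cells. Adgre4, an adhesion receptor of monocytes, stood at 15.4, 160 and 299.8 CPM in the control and at 12.1, 128 and 252 CPM in T1D. The classical gene Ly6c2 went the other way, with 1765, 1136 and 556 CPM in the control and 1512, 550 and 212 CPM in T1D. The classical gene Ccr2 did not fall at each step in the control, with 1461, 1657 and 832 CPM. In T1D Ccr2 stood at 1511, 1316 and 412 CPM. H2-Ab1 stood at 119, 927 and 902 CPM in the control and at 47.7, 58.9 and 172 CPM in T1D. The neutrophil gene Ngp stood at 4114, 4821 and 10835 CPM in the control and at 5502, 7756 and 4358 CPM in T1D. A further 35 control and 5 T1D cells would have been taken but for 1 of the excluded genes.

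The name was checked on genes that the rule did not use. A list of 20 identity genes of nonclassical monocytes was read against classical monocytes of the same library, taken as 287 control and 227 T1D cells with Ly6c2, Ccr2 and Csf1r counts and without Ace, Treml4 or cell cycle genes. All 18 identity genes measured in either library, at 20 CPM or more in one of the cell types, were above classical monocytes, with a median log2 ratio of 2.02 in the control and 2.0 in T1D. The counting interval lay above 1 for 18 of them in the control and 17 in T1D. The cells were chosen by linked genes, so these ratios describe the choice and test nothing. At least 3 identity genes were seen in 144 of 153 control (94.1%) and 76 of 83 T1D cells (91.6%), but also in 231 of 287 (80.5%) and 136 of 227 (59.9%) classical monocytes.

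Eno3 stood at 139 CPM in control nonclassical and 2.20 CPM in control classical monocytes, and at 220 and 3.27 CPM in T1D. Cd36, a scavenger receptor that takes up fatty acids and oxidised lipoprotein, stood at 135 against 2.93 CPM and at 278 against 7.63 CPM. Fcgr4, which encodes FcγRIV, stood at 206 against 16.8 CPM in the control and at 361 against 63.3 CPM in T1D. Spn, which encodes CD43, stood at 170 against 51.2 CPM and at 206 against 38.2 CPM. The distance was smaller for Nr4a1, at 782 against 675 CPM and 1088 against 647 CPM, a gene that classical monocytes of this marrow held too.

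**Figure D1:**
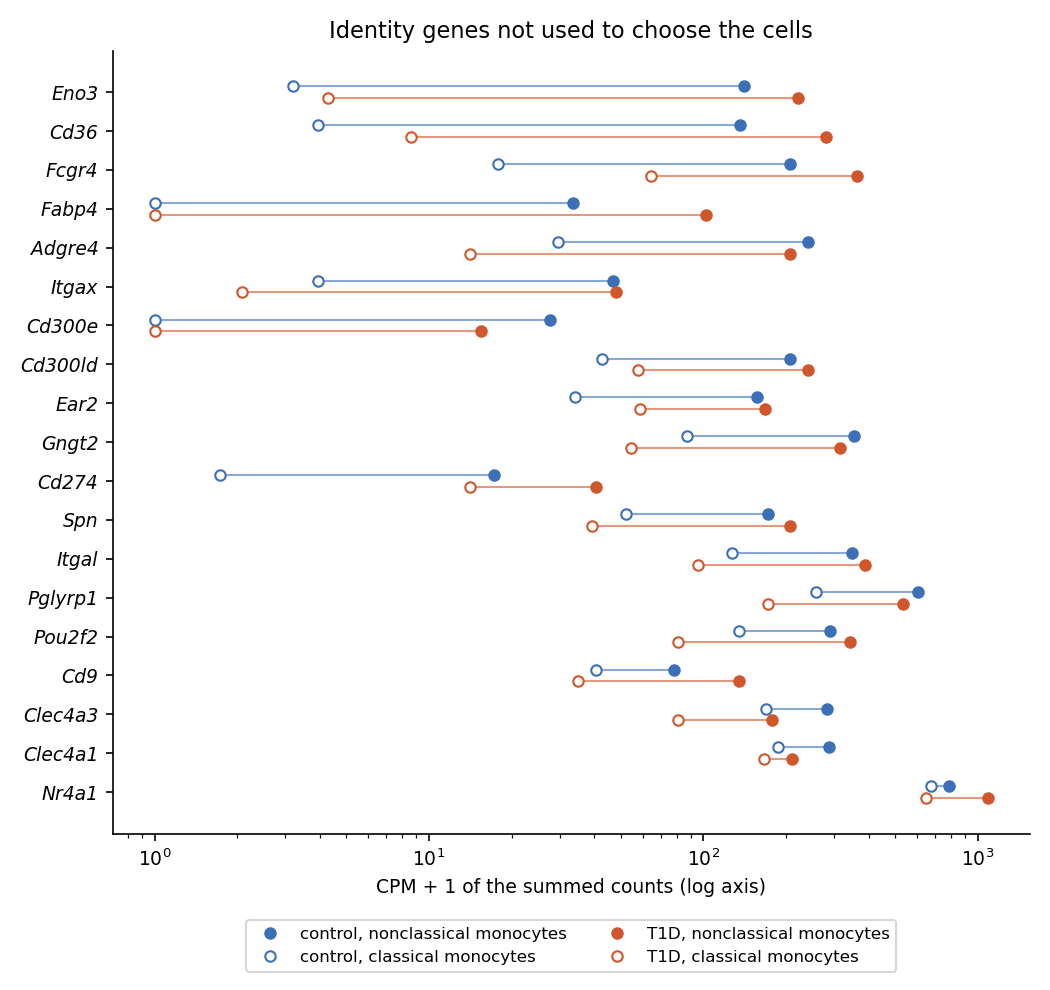
Level of each identity gene (CPM plus 1 of the summed counts, log axis) in nonclassical monocytes (filled) and classical monocytes (open) of the control and the T1D library. Every filled point lies to the right of its open point, with Eno3 and Cd36 among the widest gaps and Nr4a1 among the narrowest.

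Over all genes at 50 CPM or more, a size rule was used: a log2 ratio of at least 1 in size with 5 CPM added to both levels, and a counting interval that leaves out a ratio of 1. By it, 96 of 2898 genes (3.31%) were higher in nonclassical than in classical monocytes of the control and 40 (1.38%) were lower. In T1D 197 of 2941 (6.7%) were higher and 231 (7.85%) lower. Genes were then ranked among those at 100 CPM or more in the higher cell type of both libraries. Genes used to choose either cell type were left out of the ranking. In it, the genes furthest above classical monocytes in both libraries were Eno3, Cd36, Adgre4, Lair1, an inhibitory collagen receptor, and Fcgr4. Cd74, H2-Ab1 and H2-Eb1 of the MHC class II pathway followed, then Cd300ld and Gngt2, a subunit of a G protein. In T1D H2-Ab1 and H2-Eb1 were each seen in 4 nonclassical monocytes. A single cell held 26 of the 36 counts of H2-Ab1 there, and 30 of the 35 counts of H2-Eb1 were also in 1 cell. The genes furthest below were Vcan, Fn1 and F13a1, matrix and clotting genes of classical monocytes, with Olfm1, Lgals1, Slfn5, Itgb7, Idh1 and Ccr1. Vcan stood at 75.6 against 398 CPM in the control and at 134 against 1196 CPM in T1D.

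The cells were not of 1 kind. A set of 3 kinds, drawn after the data were seen and overlapping each other, described most of the control cells but not most of the T1D cells. The first carried 5 or more counts of the classical monocyte genes Ly6c2, Ccr2, Fn1, F13a1 and Vcan, and held 85 of the 153 control and 27 of the 83 T1D cells. The second carried 3 or more counts of the MHC class II genes H2-Aa, H2-Ab1 and H2-Eb1, and made up 41 control and 5 T1D cells. The third had over 5% of its counts in the neutrophil granule genes Ngp, Camp, Ltf, S100a8, S100a9 and Lcn2, and made up 26 control and 11 T1D cells. Of the control cells 26 were both of the first and the second kind, against 1 in T1D. None of the kinds held 41 control cells (26.8%, 20 to 34.5%) and 45 T1D cells (54.2%, 42.9 to 65.2%), and at least 3 identity genes were seen in 40 and 42 of these. Whether cells with classical or MHC class II transcripts are monocytes on the way to the nonclassical state or barcodes that hold more than 1 cell was not tested.

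**Figure D2:**
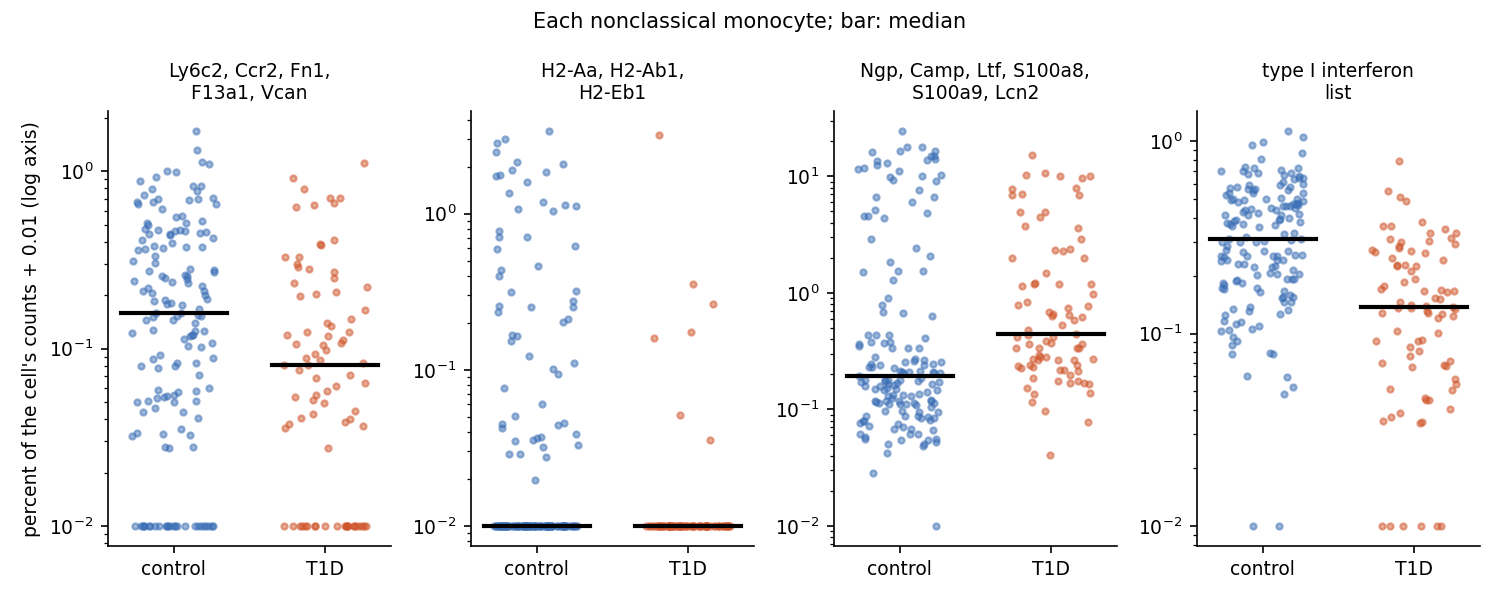
Share of each nonclassical monocyte's counts (percent plus 0.01, log axis) in the 5 classical monocyte genes, the 3 MHC class II genes, the 6 granule genes and the type I interferon list, 1 point per cell and a bar at the median. The clouds of both libraries overlap in every panel, while MHC class II counts were seen in 59 of 153 control and 7 of 83 T1D cells.

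The kinds lean on depth, since a deeper cell reaches a set number of counts sooner. After each cell was thinned to 1000 counts, an MHC class II count was seen in 28.1% of the control cells (21.1 to 35.9%) and 8.43% of the T1D cells (3.46 to 16.6%), against 38.6% and 8.43% before thinning. At least 3 classical counts were seen in 33.3% (25.9 to 41.4%) and 20.5% (12.4 to 30.8%), against 67.3% and 45.8% before. With the kinds called on thinned counts, 44 cells of each library belonged to none of them. That call used lower cut-offs for the classical and the MHC class II counts than those given above, so its kinds are not the same. Granule genes were seen in most cells of other types too. Ngp, a granule protein of neutrophils, was seen in 74.5% of control and 89.2% of T1D nonclassical monocytes and in 76.7% and 80.3% of T cells. By level, 9 of 10 measured neutrophil genes were above classical monocytes in each library, with a median log2 ratio of 0.97 in the control and 0.62 in T1D.

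Nonclassical monocytes were 1.20% of all kept cells in the control (1.01 to 1.40%) and 0.533% in T1D (0.425 to 0.660%), 2.24-fold less (1.71 to 2.97). Thinned to 1000 counts per cell, the rule found 52 control and 36 T1D cells, 1.76-fold less (1.13 to 2.77). With at least 2 counts of Ace or Treml4 asked for, the shares were 0.656% and 0.334%. Classical monocytes made up 2.24% and 1.46%, a ratio of 0.650 (0.544 to 0.776). Nonclassical cells were 34.8% (30.3 to 39.4%) of both monocyte groups in the control and 26.8% (21.9 to 32.1%) in T1D. These intervals overlap, which does not show that the shares are equal, and no interval of their ratio was computed.

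The kinds did not share this gap evenly. Cells with classical transcripts made up 0.664% of the control (0.531 to 0.820%) and 0.173% of T1D (0.114 to 0.252%), 3.83-fold less. MHC class II-positive cells made up 0.320% (0.230 to 0.434%) and 0.0321% (0.0104 to 0.0749%), 9.98-fold less. Granule-high cells made up 0.203% (0.133 to 0.297%) and 0.0706% (0.0353 to 0.126%). The cells of none of these kinds made up 0.320% (0.230 to 0.434%) in the control and 0.289% (0.211 to 0.386%) in T1D, a ratio of 0.902 (0.578 to 1.41). With kinds called on thinned counts, at the lower cut-offs, the ratio was 0.822 (0.529 to 1.28). Shares are of all kept cells, so a gain of other cells in T1D would lower them as a loss of monocytes would, and these cannot be told apart.

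**Figure D3:**
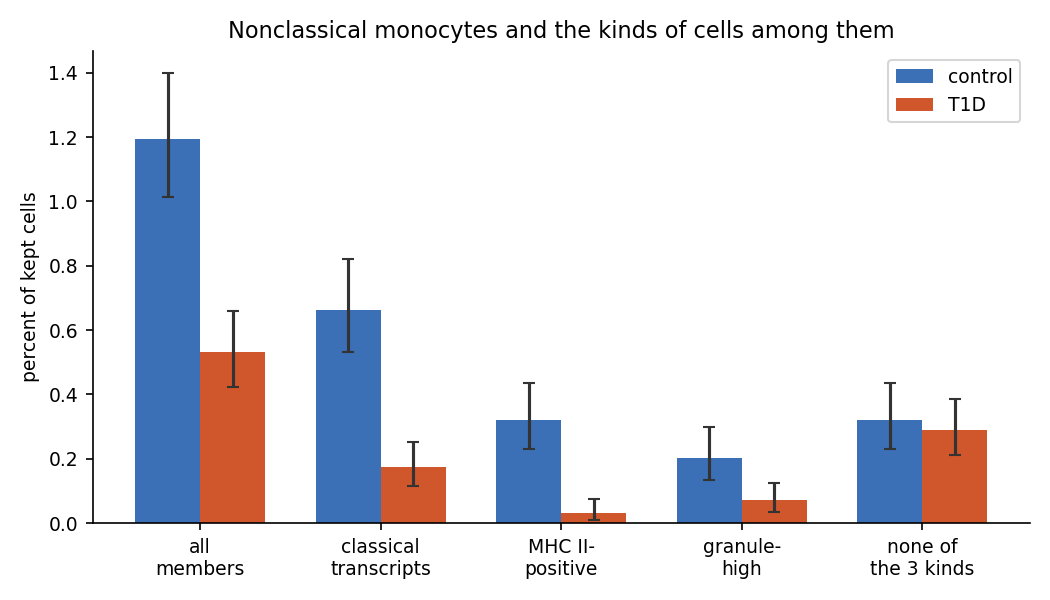
Share of kept cells (percent, from 0) that were nonclassical monocytes, and that were of each kind among them, in the control and the T1D library, with 95% Clopper-Pearson intervals as error bars. The T1D bar is lower for all cells of the rule and for each of the 3 kinds, and the bars of the cells of none of the kinds overlap in their intervals.

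Within nonclassical monocytes, 133 of 2966 genes at 50 CPM or more (4.48%) were past the size rule and higher in T1D, and 219 (7.38%) were past it and lower. The median log2 ratio of all 5583 genes at 20 CPM or more was -0.10. Among genes past the size rule, 102 of the 133 higher and 217 of the 219 lower were spread over the cells, which means seen in at least 10 cells of the library where they were higher with no cell holding over 25% of their counts there. That condition was added after the data were seen. Lower genes were judged by it in 153 control cells with 674853 counts, and higher genes in 83 T1D cells with 276711 counts. It was therefore easier to meet for lower genes, and the 2 numbers are not on equal terms. A set of 80 genes past the size rule was followed further. It held genes chosen by the rule for named genes and genes furthest each way among those spread over the cells. Of these 80 genes, 43 stayed past the size rule in the cells of none of the 3 kinds, which hold fewer counts, and 47 after thinning. Those that did not stay past it in these cells include Cd36, Abca1, Ier3, Zbtb16, Nfkbiz, Irf7, Trim30a, Ddx58, Nr4a2, Hspd1 and Hexa, with log2 ratios there of 0.16, 0.17, 0.32, 0.05, 0.68, -0.59, -0.51, -0.77, -0.63, -0.65 and -0.34. Oas1a, Oasl2, Bst2, Ifi209, Bcl2, Fabp4 and Lgals1 did not stay past it there either, with ratio intervals that reach both sides of 1.

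**Figure D4:**
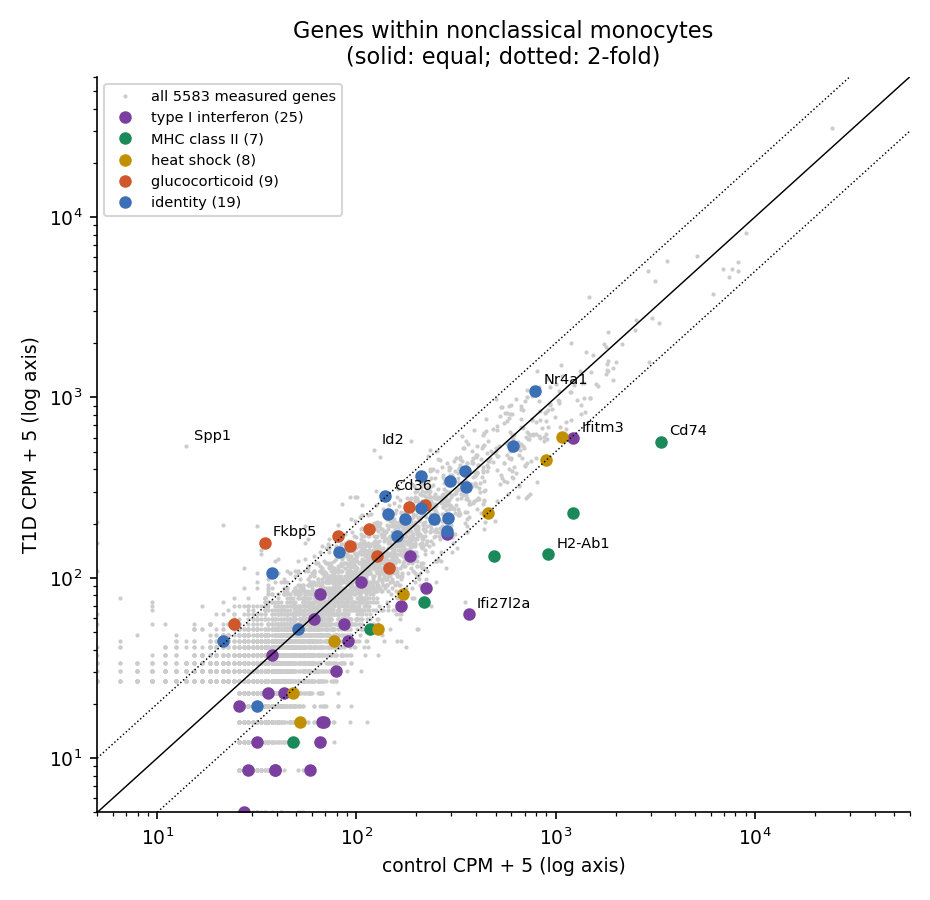
Level of each gene in nonclassical monocytes (CPM plus 5, log axes), control against T1D, with all measured genes in grey and 5 lists in colour. Type I interferon, MHC class II and heat shock genes lie almost all below the solid line of equal levels, and glucocorticoid response genes almost all above it.

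The genes that give these cells their identity differed little as a list. Of 19 measured identity genes 13 were higher and 6 lower in T1D, with a median log2 ratio of 0.21, and 2 passed the size rule, both higher. These were Cd36, at 135 CPM in the control and 278 CPM in T1D (2.06-fold, 1.5 to 2.83), and Fabp4, a fatty acid carrier, at 32.6 and 101 CPM (3.10-fold, 1.71 to 5.69). Spn, Itgal, a chain of the integrin LFA-1, and Pou2f2, a transcription factor, had ratios of 1.21 (0.864 to 1.67), 1.12 (0.879 to 1.41) and 1.18 (0.909 to 1.51). In the cells of none of the kinds the list's median was -0.27, on the other side of 0, with 7 genes above and 12 below 0. Cd36 stood there at 361 and 405 CPM. Itgal stood at 647 and 452 CPM (ratio interval 0.492 to 0.985) and Gngt2 at 715 and 397 CPM (0.387 to 0.789). Nr4a1 stood at 918 and 1355 CPM (1.16 to 1.88).

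Of 18 measured transcription factors of monocytes, Cebpb was the 1 higher past the size rule, at 126 and 463 CPM (3.67-fold, 2.77 to 4.89). Cebpb encodes a C/EBP factor that nonclassical monocytes need to live. Nr4a2, a relative of Nr4a1, was the 1 lower, at 81.5 and 28.9 CPM (2.82-fold, 1.34 to 6.85). Spi1, which encodes the myeloid factor PU.1, stood at 286 and 293 CPM and Zeb2 at 495 and 502 CPM. Nr4a1 stood at 782 and 1088 CPM (1.39-fold, 1.20 to 1.60), short of the size rule. Among 12 measured genes of survival and of the CSF1 and fractalkine receptors, Bcl2, which blocks cell death, was the 1 past the size rule, at 19.3 and 72.3 CPM from 13 and 20 counts (3.75-fold, 1.78 to 8.21). Its relative Mcl1 stood at 625 and 979 CPM (1.57-fold, 1.34 to 1.83).

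Type I interferon response genes were lower in T1D. Of 33 genes in the list 25 were measured, 24 of them lower in T1D, against 55.8% of all measured genes. Their log2 ratios had a median of -1.26, and 10 of the 16 that reached 50 CPM were past the size rule and lower, none higher. Ifi27l2a, a membrane protein induced by interferon, stood at 362 CPM in the control (318 to 410) and at 57.8 CPM in T1D (33.1 to 93.9), 6.25-fold lower (3.77 to 11.1), and was seen in 77 of 153 and 9 of 83 cells. In T cells it was seen in 13.4% and 4.13%. Ifitm3, which hinders virus entry, stood at 1222 and 593 CPM (2.06-fold lower, 1.74 to 2.45) and was seen in 142 and 61 cells.

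The antiviral oligoadenylate synthetases were at a few counts in T1D. Oas1a had 36 counts in the control and 1 in T1D (14.8-fold lower, 2.49 to 599), Oas3 had 41 and 2 (8.41-fold, 2.18 to 71.7), and Oasl2 had 43 and 3 (5.88-fold, 1.88 to 29.6). Ddx58, which encodes the RNA sensor RIG-I, had 42 and 3 counts (5.74-fold lower, 1.83 to 29.0). Irf7, the factor that amplifies interferon transcription, stood at 74.1 and 25.3 CPM, Bst2, which tethers budding virus, at 85.9 and 39.8 CPM, Trim30a at 218 and 83.1 CPM and Ifi209 at 163 and 65.0 CPM. Isg15, a ubiquitin-like modifier, had 15 counts in the control and 0 in T1D, at least 2.05-fold lower against a floor of 3 counts in the library, and was under the level of the size rule. Ifih1, Stat2 and Zbp1 did not pass it, with ratios of 0.963 (0.492 to 1.79), 0.998 (0.404 to 2.25) and 1.25 (0.701 to 2.16).

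Factors activated by interferon bind a short repeat in promoters, and sequences are shown here for 4 of the 10 genes that were past the size rule and lower. The motif searched was GAAA, then 2 bases of any kind, then GAAA, on both strands, from 250 bases before to 50 bases after each start in RefSeq's mouse promoters of build GRCm38.p6, a build other than that of the counts. It was in 1131 of 32851 promoters (3.44%), and 1079 of 27025 genes (3.99%) held it in any of their promoters. Of the 33 genes of the list 24 matched a promoter by symbol and 13 of these held it, as did 6 of the 9 matched among the 10 lower ones. A match says only that these letters are there. Each line is 30 bases read 5′ to 3′ along the gene, with the motif or its reverse complement in capitals.
Oas1a, minus strand, chr5:120907526-120907555: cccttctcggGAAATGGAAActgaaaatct
Oas3, minus strand, chr5:120777715-120777744: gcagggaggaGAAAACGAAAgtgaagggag
Bst2, minus strand, chr8:71537583-71537612: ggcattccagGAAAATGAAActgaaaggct
Trim30a, minus strand, chr7:104465210-104465239: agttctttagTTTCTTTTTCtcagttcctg

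Counted from the start of transcription, the Oas1a match shown begins at -20, and another that overlaps it begins at -14. The Bst2 match begins at -130 and overlaps another at -124. The Oas3 match begins at -75. The Trim30a match is on the other strand and begins at -36. Trim30a has 2 promoters in this set, and the one not shown holds a match on that strand that begins at 2.

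The interferon difference was spread over cells rather than held by a few. Per cell the list's share of the counts had a median of 0.301% in the control (0 to 1.12%) and 0.127% in T1D (0 to 0.782%), with wide overlap. At 1000 counts per cell, 3 or more counts of the list were seen in 57.5% of control cells (49.3 to 65.5%) and 24.1% of T1D cells (15.4 to 34.7%), against 92.8% and 66.3% before thinning. The same genes had a median of -0.77 in the cells of none of the kinds, with Ifi27l2a at 286 and 46.7 CPM. Of the list's genes past the size rule, only Ifi27l2a, Ifitm3 and Oas3 stayed past it in those cells. Classical monocytes had a median of -0.94 for the measured genes of the list, all 25 below 0, and all kept cells had -0.71. The differences between these cell groups were not tested.

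MHC class II genes, which show peptides to CD4 T cells, were lower in T1D in all 7 measured, 6 of them past the size rule, with a median log2 ratio of -1.97. Cd74, the invariant chain, stood at 3365 CPM in the control (3228 to 3506) and 564 CPM in T1D (479 to 660), 5.97-fold lower (5.07 to 7.07). H2-Ab1 stood at 913 and 130 CPM (7.02-fold, 5.01 to 10.1), H2-Aa at 1220 and 224 CPM, and H2-Eb1 at 485 and 126 CPM. H2-DMa and H2-DMb1, which load the peptide, stood at 213 and 68.7 CPM and at 113 and 47.0 CPM. Ciita, the master regulator of the pathway, had 29 and 2 counts.

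These levels came from few cells. H2-Ab1 was seen in 50 of 153 control cells (32.7%) and 4 of 83 T1D cells (4.82%), and 26 of its 36 T1D counts were in 1 cell. T cells had it in 6.11% and 1.83%. Cd74 was seen in 66.0% and 28.9% of nonclassical monocytes and in 15.6% and 2.75% of T cells. The B cell gene Ighm moved with them, at 347 and 68.7 CPM in nonclassical monocytes and at 909 and 223 CPM in all kept cells, and its part in the result was not tested. The cells of none of the kinds had almost no MHC class II by their choice, with Cd74, which the choice did not use, at 1008 and 125 CPM, and H2-Aa and H2-DMa turned there to log2 ratios of 1.35, from 0 and 1 counts, and 0.044. Classical monocytes had a list median of -1.60.

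MHC class I genes were close to level. Of 11 measured, 3 were above and 8 below 0, the median was -0.09, and Psmb8, a subunit of the immunoproteasome, was the 1 past the size rule, at 221 and 105 CPM (2.11-fold lower, 1.41 to 3.25). H2-D1 stood at 1532 and 1706 CPM (ratio 1.11, 0.996 to 1.24) and H2-K1 at 1028 and 969 CPM (0.942, 0.815 to 1.09).

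Chaperones were lower in T1D. All 8 measured heat shock genes were lower, against 55.8% of all measured genes, by a median of -1.03 on the log2 scale. Of the 6 that reached 50 CPM 3 were past the size rule and lower, against 7.38% of all genes at that level. Hsp90ab1, which encodes cytosolic HSP90, stood at 895 CPM (825 to 969) and 445 CPM (369 to 530), Dnaja1, a co-chaperone, at 166 and 75.9 CPM, and Hspd1, the mitochondrial chaperonin, at 123 and 47.0 CPM. Hsp90aa1 at 452 and 224 CPM and Hspa8 at 1073 and 596 CPM were lower but short of the rule. Stip1, which links HSP70 to HSP90 and was not in the list, had 59 and 3 counts (8.06-fold lower, 2.63 to 40.2).

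Of 16 measured chaperones and stress genes of the endoplasmic reticulum 15 were below 0, against 55.8% of all measured genes, with a median of -0.55. Of the 13 at 50 CPM 4 were past the size rule and lower, against 7.38% of all genes at that level. Hspa5, which encodes BiP, stood at 723 CPM (660 to 790) and 278 CPM (220 to 348), 2.60-fold lower (2.04 to 3.35), and was seen in 123 of 153 and 38 of 83 cells. Calr stood at 219 and 83.1 CPM, Herpud1 at 105 and 32.5 CPM and Dnajb9 at 68.2 and 28.9 CPM. Creld2 had 18 counts in the control and 0 in T1D, at least 2.46-fold lower. The median in classical monocytes was -0.07, in all kept cells -0.60 and in the cells of none of the kinds -0.77. The difference between the monocyte groups was not tested.

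Genes driven by the glucocorticoid receptor were higher. Of 9 measured 8 had a ratio above 1, with a median log2 ratio of 0.68, and 3 of 9 were past the size rule, none lower. Fkbp5, a co-chaperone of that receptor and a standard response gene, stood at 29.6 CPM (18.1 to 45.8) and 152 CPM (109 to 205), 5.12-fold higher (2.94 to 9.21), seen in 14 and 25 cells. Klf9 stood at 75.6 and 166 CPM (2.20-fold, 1.44 to 3.34) and Zbtb16 at 19.3 and 50.6 CPM, from 13 and 14 counts. Tsc22d3, which encodes GILZ, was the 1 below 0, at 141 and 108 CPM (ratio 0.770, 0.493 to 1.17). The cells of none of the kinds had a list median of 0.68, with Fkbp5 at 1 and 21 counts and Zbtb16 level at 52.7 and 54.5 CPM. Classical monocytes had a list median of 0.20, with 5 genes above and 4 below 0. Fkbp5 was also higher in classical monocytes, at 20.5 and 105 CPM, and in T cells it was seen in 9.92% and 21.1% of cells.

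Id2, an inhibitor of E proteins, was among the genes furthest higher that were spread over the cells, at 117 CPM (92.7 to 146) and 506 CPM (426 to 597), 4.32-fold (3.26 to 5.77), seen in 48 of 153 and 52 of 83 cells. The others among the first 5 were Fkbp5, Lpl, Cd300lf, an inhibitory receptor, at 22.2 and 108 CPM, and AW112010 at 28.2 and 130 CPM. Id2, Cebpb, Glul, the maker of glutamine, Cirbp, a cold-inducible RNA-binding protein, Cd38, Prok2 and Asprv1 came from a list of 14 genes that earlier work on these data had picked as higher in T1D myeloid cells, so its 12 of 12 above 0 are no independent evidence. In all kept cells Cebpb stood at 71.8 and 226 CPM and Id2 at 76.1 and 169 CPM.

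Among lipid genes 12 were measured, 4 past the size rule and higher, 1 lower, with a median of 0.52. Lpl, the lipase that frees fatty acids from lipoprotein, stood at 28.2 and 137 CPM (4.88-fold, 2.74 to 8.96), and Abca1, which exports cholesterol, at 29.6 and 72.3 CPM (2.44-fold, 1.25 to 4.78), beside Cd36 and Fabp4. Apoe stood at 914 and 1254 CPM (1.37-fold, 1.20 to 1.57). Classical monocytes had a median of -0.39 for the list. In the cells of none of the kinds Lpl had 0 counts in the control and 20 in T1D.

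Immediate early genes went both ways. Of 15 measured, 3 were past the size rule and lower and 1 higher, and the median was 0.17. Jun, Fosb and Atf3, transcription factors of the early response, stood at 493 and 202 CPM, 434 and 181 CPM and 643 and 275 CPM. Ier3 was higher, at 80.0 and 253 CPM, but stood at 105 and 132 CPM in the cells of none of the kinds (ratio interval 0.583 to 2.75), while Fos stood at 2513 and 2349 CPM (ratio 0.935, 0.853 to 1.02). Of 18 measured inflammatory genes Nfkbiz, an NF-κB cofactor, was higher at 224 and 466 CPM (2.08-fold, 1.63 to 2.65), and Ptgs2, the inducible cyclooxygenase, was lower at 107 and 39.8 CPM (2.68-fold, 1.41 to 5.61), a direction that turned to a log2 ratio of 0.19 with the 3 kinds, called on thinned counts, left out. Il6 was past the rule with 3 and 17 counts, 10 of the 17 in 1 cell. Il1b stood at 716 and 1091 CPM (1.52-fold, 1.32 to 1.76), short of the rule.

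The genes that carry nonclassical monocytes along vessels differed little as a list. Of 15 measured adhesion and migration genes 10 were above and 5 below 0, with a median of 0.10, and Pecam1, an endothelial and leukocyte adhesion molecule, was the 1 past the size rule, with 37 and 1 counts (15.2-fold lower, 2.56 to 615). Itgb2, the shared chain of the leukocyte integrins, stood at 376 and 430 CPM (ratio 1.14, 0.911 to 1.43), and S1pr5, the receptor by which these cells leave the marrow, at 41.5 and 54.2 CPM (1.31, 0.649 to 2.53). Cxcr4, which holds cells in the marrow, stood at 237 and 398 CPM (1.68, 1.30 to 2.15). In the cells of none of the kinds the adhesion list had a median of -0.20, with 7 genes above and 8 below 0. Pecam1 had 23 and 0 counts there, and the ratio interval was 0.492 to 0.985 for Itgal and 1.01 to 1.70 for Itga4. Of 11 measured Fc and complement genes 1 was past the rule and higher, and Fcgr4 was short of it, at 206 and 361 CPM (1.75-fold, 1.34 to 2.29).

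Of 18 lysosome genes 15 were below 0, with a median of -0.34, and 3 were past the rule and lower. These were Cd68, a membrane protein of lysosomes, at 262 and 119 CPM (2.20-fold, 1.51 to 3.29), Npc2, which moves cholesterol, at 648 and 318 CPM, and Hexa at 148 and 61.4 CPM. Lyz2, lysozyme, stood at 8280 and 5034 CPM (1.64-fold lower, 1.55 to 1.75). All 7 measured genes of the mitochondrial genome were below 0, none past the rule, with a median of -0.50, against -1.13 in all kept cells. Of 18 measured glucose genes Slc2a3, a glucose transporter, was the 1 past the rule, at 62.2 and 145 CPM (2.32-fold higher, 1.47 to 3.67), and the list's median was -0.11. Of 12 genes of osteoclast precursors 5 were measured and none passed.

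**Figure D5:**
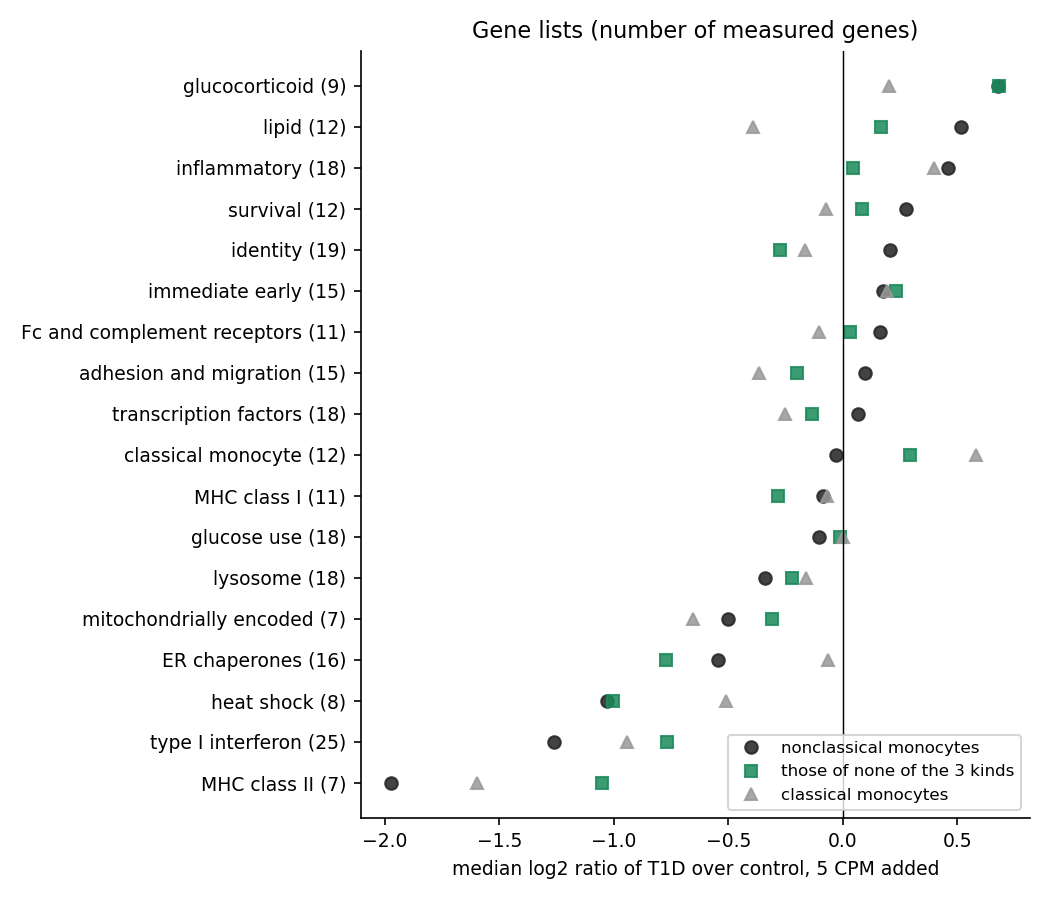
Median log2 ratio of T1D over control (5 CPM added) of each gene list, with its number of measured genes, in nonclassical monocytes (circles), in those of none of the 3 kinds (squares) and in classical monocytes (triangles). MHC class II, type I interferon and heat shock genes lie left of 0 in all of them, glucocorticoid response genes right of 0, and the lipid list lies right of 0 in nonclassical and left of it in classical monocytes.

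Classical monocyte genes within these cells split. Of 12, 6 were above and 6 below 0. Ly6c2, which encodes Ly6C, stood at 803 and 336 CPM (2.39-fold lower, 1.91 to 3.01), with 75.2 and 140 CPM in the cells of none of the kinds, which were chosen on it. Chil3, a chitinase-like protein of granulocytes and monocytes, stood at 1468 and 3585 CPM (2.44-fold higher, 2.23 to 2.67) and F10, clotting factor X, at 60.8 and 134 CPM (2.20-fold, 1.37 to 3.52). The log2 ratio of Chil3, 1.28, was 0.42 in cells with at least 2 counts of Ace or Treml4 and 0.15 without cells with classical transcripts, both short of the rule, and 2.94 in the cells of none of the kinds. Chil3 stood at 1641 and 8389 CPM in classical monocytes and at 2399 and 3052 CPM in all kept cells. Lgals1, which encodes galectin-1, had the lowest log2 ratio among genes past the size rule, -2.84 with 5 CPM added, from 73 and 3 counts (9.98-fold, 3.28 to 49.5).

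Several of the highest ratios came from 1 cell. All T1D counts of Spp1 (148), Mmp13 (42), Tnc (29), Col2a1 (16), Cxcl12 (14), a chemokine, and Serpine2 (53), a protease inhibitor, were in 1 barcode of 4109 counts. It held 8 counts of the bone gene Ibsp, 2 of Ace and 1 of Csf1r. Saa3, an acute-phase protein, had 55 counts in 7 T1D cells, 36 of them in 1 cell, and none in the control. Prok2 had 20 counts in 8 T1D cells, 10 of them in 1 cell, and 1 in the control.

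Genes of other cell types were compared with their level in all kept cells, and most lists were below it. The summed level of 12 neutrophil genes was 48.1% of that in all kept control cells and 37.4% in T1D, with 9 of 12 lower and none past the size rule. The 8 B cell genes stood at 36.1% and 35.1%, with 5 of 5 measured lower, the 6 plasma cell genes at 3.65% and 5.08%, and the 8 erythroid genes at 7.16% and 8.49%. The 10 T and NK cell genes stood at 25.9% and 10.3%, with Cd3e and Cd3d at 0 in T1D, and the 5 megakaryocyte genes at 7.42% and 0%. The 10 macrophage genes stood at 143% and 129%, with Cd163 and Cd5l at 0 in both libraries and Hmox1, which breaks down heme, past the size rule at 93.4 and 202 CPM. The 6 genes of plasmacytoid dendritic cells stood at 47.8% and 122%, with Tcf4 lower at 59.3 and 25.3 CPM, and the 8 of conventional dendritic cells at 29.3% and 36.7%. The part of these in the results above was not tested beyond the cells left out by kind.

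Cell cycle genes stood low. Mki67 stood at 218 and 83.1 CPM against 1126 and 934 CPM in all kept cells. Of 8 measured genes of mitosis all were below 0 in T1D, with a median of -0.82, a direction that turned to 0.23 when cells were thinned to 1000 counts. A count of Mki67 or Top2a was seen in 25.5% of control and 27.7% of T1D cells, and in 9.80% and 15.7% after thinning.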

How the data were processed

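Single-cell RNA of mouse bone marrow was measured in 1 control and 1 T1D library, told apart by their labels. The authors deposited raw counts, 1 table per library with genes against barcodes. The submitters' processing notes name bcl2fastq 2.19, featureCounts and the build mm9. No source used here names the aligner or says whether molecular identifiers were collapsed, so values are called counts.

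Barcodes with at least 200 genes and at most 20% mitochondrial counts were kept, 12803 of 12880 and 15579 of 15771. No doublet caller was run and no doublets were removed. Counts were summed over the cells of a library, with no count model, and compared as CPM by the size rule given in the report (Python 3.11.15, numpy 2.4.6, scipy 1.17.1, pandas 2.3.3). TMM factors of edgeR 4.0.16 and size factors of DESeq2 1.42.0 were tried as scaling only. Scripts were tested on simulated data.

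The cells, the 32 gene lists and the comparisons were chosen with earlier results of these data known. Named genes were the rule and identity genes, up to 8 furthest higher and lower past the size rule, list genes past it and up to 4 with the most counts per list, and 10 each way against classical monocytes. Genes named outside that rule, among them Cd300lf, AW112010, Isg15, Creld2, S1pr5, Ciita and the others quoted with few counts, were chosen after their values were seen. Of 422 genes in the lists 1 (Apoc2) was in neither table. Some genes of the lists are not reported here by name.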

Additional observations from a re-analysis of the deposited data

Results flagged for a closer look

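Lpl and Ptgs2 differed between T1D and control in opposite directions in the nonclassical and the classical monocytes of the same libraries, and the difference between the cell types was not tested. In nonclassical monocytes Lpl, the lipoprotein lipase, had a log2 ratio of T1D over control of 2.10, from 28.2 and 137 CPM, seen in 12 and 18 cells with at most 6 counts in any 1 T1D cell. In classical monocytes it stood at 77.6 and 43.6 CPM, a log2 ratio of -0.76 with a counting interval of the ratio from 0.381 to 0.816.

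Ptgs2, the inducible cyclooxygenase, had a log2 ratio of -1.32 in nonclassical monocytes, from 107 and 39.8 CPM, with 25 of its 72 control counts and 4 of its 11 T1D counts in 1 cell each. In classical monocytes it stood at 164 and 207 CPM, a log2 ratio of 0.33 with an interval of the ratio from 1.04 to 1.54.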

How the results depend on the processing

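No paired analysis was possible because each group has 1 library and the labels give no replicate numbers. The log2 ratio of the share of nonclassical monocytes, -1.17, kept its sign and ran from -1.18 to -0.15 over 11 alternatives, with -0.56 without cells with classical transcripts, -0.15 without all 3 kinds and -0.28 with the kinds called on thinned counts. Leaving out cells with any count of another lineage's genes left 7 control and 0 T1D cells, which gave no value for the cells or their genes.

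The 133 genes higher in T1D became 258 with totals that leave out ribosomal RNA, 67 with 20 CPM added, 260 and 55 with a minimum of 20 and 100 CPM, 81 without each gene's top cell and 352 with free RNA subtracted at the level of Ngp, Camp and Ltf. The 219 lower became 115 with 20 CPM added, 402 and 85 with a minimum of 20 and 100 CPM, and 404 with that subtraction. The cause was not tested, beyond fewer or more genes under another minimum. The median of all genes moved by 0.11 with thinned cells and by -0.13 without each gene's top cell. Against classical monocytes, the 96 higher in the control became 164 with at least 2 counts of Ace or Treml4, 166 with thinned cells, 145 without ribosomal RNA and 345 without the 3 kinds, and the 40 lower became 89, 143, 80 and 264. The 197 higher in T1D became 324 without ribosomal RNA and 342 without the 3 kinds.

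Among 21 list medians 10 crossed 0 under at least 1 of 21 settings. Of these, 8 were within 0.28 of 0 as reported: identity (-0.27 to 0.36), classical monocyte, transcription factor, survival, adhesion, Fc and complement, immediate early and glucose genes, so no direction is read from them. The other 2 were 0.5 or more from 0. The mitosis list (-0.82) turned to 0.23 with thinned cells, 1.54 without cells with Mki67 or Top2a, 0.045 without the 3 kinds and 0.19 with kinds called on thinned counts. The S phase list (-0.54) turned to 0.69 with thinned cells, 0.11 with the mean of the cells' own CPM, 2.34 with free RNA at Ngp, Camp and Ltf and 0.73 without cells with Mki67 or Top2a. Over the genes measured anew under each setting, the interferon median ran from -1.46 to -0.81, MHC class II from -3.18 to -0.78, heat shock from -1.20 to -0.73 and glucocorticoid response from 0.32 to 0.95. Of 80 genes 6 turned. Without the 3 kinds H2-Aa was 1.35, H2-DMa 0.044 and Ly6c2 0.86, and with kinds called on thinned counts Ly6c2 was 0.21 and Ptgs2 0.19. Serpine2 was -1.62 without its top cell, -2.01 without cells with Mki67 or Top2a and -2.09 without the cell holding Mmp13, and Spp1 was -0.92, -0.52 and -1.47. At these depths a gene under about 50 CPM rests on fewer than 20 counts in T1D.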
